A study of Mus musculus with 8 samples.

Results

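The genes described here form the cell's antioxidant and glutathione defence, and their signals were followed in cultured spermatogonial stem cells of the mouse, which renew themselves and found the sperm lineage. The list names 44 genes, and a gene was taken as measured where a probe set of the array carries its symbol alone in the platform annotation. This left 42 genes of 19938 with such a probe set, since no such probe set was found for Prdx5 and Prdx6, which are not analysed here. A gene with more than 1 such probe set was represented by the one with the highest mean over all 8 arrays. Values are signals on a log2 scale, so a difference of 1 is a doubling. Apart from that choice, signals of different probe sets were pooled only in sums and medians over lists and set only against the median of all probe sets.

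The 8 arrays fell into 3 groups, all labelled as spermatogonial stem cells. The serial-transplant, long-culture group (n = 2) held stem cells of a serially transplanted line with a labelled donor age of 1500 days, cultured for 14 to 18 months. The young-donor, long-culture group (n = 3) was started from 8-day-old donors and kept 14 to 18 months in culture. The young-donor, short-culture group (n = 3), against which both were set, also started from 8-day-old donors, was kept 7 to 10 weeks. High donor age always came with serial transplantation, so their effects cannot be told apart. Strain, sex and any feeder cells are not given in the labels, nor do they say whether replicates had separate donors or cultures. The p-values therefore cover the spread among these arrays alone, and that spread may be technical.

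Cells hold reactive oxygen in check in layers. Superoxide dismutases turn superoxide into hydrogen peroxide, which catalase, glutathione peroxidases and peroxiredoxins remove; thioredoxin, thioredoxin reductases and glutathione reductase then restore the spent enzymes and glutathione with NADPH. Glutathione transferases couple glutathione to toxic compounds, metallothioneins bind zinc and copper, and the transcription factor Nrf2 (gene Nfe2l2), held back by Keap1, turns on many of these genes through antioxidant response elements.

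The promoters of 6 members whose signals separated long from short culture are shown because they carry, or lack, the 2 sequence elements best known in this pathway. Each window runs from 250 bases before to 50 after an annotated RefSeq start in GRCm38.p6. A search on both strands used the core of the antioxidant response element (TGACNNNGC) and of the metal response element, the site of the zinc-sensing factor Mtf1 (TGCACNC or TGCGCNC). Capitals mark the matches, and a match is a description of letters only. Mt1 lies at chr8:94178839-94179138 and Mt2 at chr8:94172368-94172667, both on the plus strand; Mgst1 lies at chr6:138140277-138140576 (plus), Gstm1 at chr3:108017924-108018223 (minus), Gstm5 at chr3:107895604-107895903 (plus) and the second of 3 Txnrd1 windows at chr10:82858956-82859255 (plus).
Mt1: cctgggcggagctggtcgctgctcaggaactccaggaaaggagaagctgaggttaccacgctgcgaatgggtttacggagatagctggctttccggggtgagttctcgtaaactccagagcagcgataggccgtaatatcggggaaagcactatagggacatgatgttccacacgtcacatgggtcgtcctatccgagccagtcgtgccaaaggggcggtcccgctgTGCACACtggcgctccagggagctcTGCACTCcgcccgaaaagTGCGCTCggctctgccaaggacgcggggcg
Mt2: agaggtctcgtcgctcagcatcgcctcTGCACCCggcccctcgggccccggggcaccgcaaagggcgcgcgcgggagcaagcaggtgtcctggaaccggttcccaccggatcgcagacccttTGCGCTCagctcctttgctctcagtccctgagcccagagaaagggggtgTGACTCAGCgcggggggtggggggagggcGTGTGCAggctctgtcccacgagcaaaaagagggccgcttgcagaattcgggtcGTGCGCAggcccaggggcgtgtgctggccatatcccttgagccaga
Mgst1: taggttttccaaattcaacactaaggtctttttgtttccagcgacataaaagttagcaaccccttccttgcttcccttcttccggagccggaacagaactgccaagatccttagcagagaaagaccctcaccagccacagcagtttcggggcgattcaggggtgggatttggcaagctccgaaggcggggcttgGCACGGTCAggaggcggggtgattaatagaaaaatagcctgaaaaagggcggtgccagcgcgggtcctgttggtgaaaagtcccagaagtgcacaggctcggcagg
Gstm1: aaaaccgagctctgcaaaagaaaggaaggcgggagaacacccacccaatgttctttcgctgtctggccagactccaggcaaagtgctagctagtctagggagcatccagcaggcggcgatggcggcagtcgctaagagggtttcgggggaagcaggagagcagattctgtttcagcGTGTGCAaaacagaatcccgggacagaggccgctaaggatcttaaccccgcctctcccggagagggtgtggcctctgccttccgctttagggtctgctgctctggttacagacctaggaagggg
Gstm5: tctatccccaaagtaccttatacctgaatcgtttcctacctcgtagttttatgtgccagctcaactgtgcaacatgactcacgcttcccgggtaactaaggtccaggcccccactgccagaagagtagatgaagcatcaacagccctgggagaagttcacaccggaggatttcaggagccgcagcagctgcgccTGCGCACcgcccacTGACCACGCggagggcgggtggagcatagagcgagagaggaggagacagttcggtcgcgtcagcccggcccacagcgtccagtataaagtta
Txnrd1: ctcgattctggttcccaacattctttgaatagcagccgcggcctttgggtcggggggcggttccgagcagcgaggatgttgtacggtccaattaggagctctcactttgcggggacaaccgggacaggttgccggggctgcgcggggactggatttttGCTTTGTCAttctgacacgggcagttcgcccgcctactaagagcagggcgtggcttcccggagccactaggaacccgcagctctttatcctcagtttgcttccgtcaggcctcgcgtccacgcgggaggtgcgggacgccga
The Mt1 window held 3 metal response cores and the Mt2 window 4, with 1 antioxidant response core in Mt2. Of all 32851 windows, 25.7% held at least 1 metal response core and 1.97% held 3 or more. Antioxidant response cores occurred once each in the Mgst1, Gstm5 and Txnrd1 windows shown and not in that of Gstm1. Other annotated windows of Mgst1, Txnrd1 and Gstm1, which are not printed, held none. Of the 12 members with a window that passed in young long culture, 5 held such a core in at least 1 window. The same held for 9 of all 36 members with a window, and whether these shares differ was not tested. RefSeq windows were found for 36 of the 42 members, 44 windows in all, of which 9 (20.5%) held an antioxidant response core, against 12.4% of all windows, and 15 (34.1%) a metal response core. The matches in these windows did not overlap each other, apart from 1 pair of matches in Gclm.

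Long culture of young-donor cells went with lower signals of 4 glutathione transferases, both metallothioneins and some peroxide-removing enzymes. Superoxide dismutases, catalase and the enzymes of glutathione synthesis did not pass the test, but are too few to be read as spared. Against young short culture, 12 of the 42 members fell and 2 rose (33.3%), where 5.83% of all 28944 probe sets fell, 5.43% rose and 11.3% passed in all (limma, Benjamini-Hochberg adjusted p under 0.05). The members' median change was -0.07, and that of all probe sets -0.03. In the serial-transplant long-culture group, set against the same young short-culture arrays, 9 members fell and 2 rose (26.2%), where 5.15% of all probe sets fell, 3.58% rose and 8.73% passed in all, with a median of -0.09 for the members and -0.00 for all probe sets. Members are brighter than most probe sets, and bright probe sets passed more often. With probe sets whose mean over all arrays was at or below the overall median left out, 20% of the 14490 that remained passed in young long culture and 16.5% in serial-transplant culture, against 15 and 11 of the 35 members that remained. These comparisons share their short-culture arrays, so their values are given side by side and their likeness is not a result. Arrays of young long and young short culture did not overlap for 19 members (45.2%), 14 of them lower, where this held for 31.4% of all probe sets and 16.3% were lower without overlap. For serial-transplant against young short culture the count was 23 members (54.8%), where it was 37.3% of all probe sets. The plot of changes by gene shows both comparisons.

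**Figure D1:**
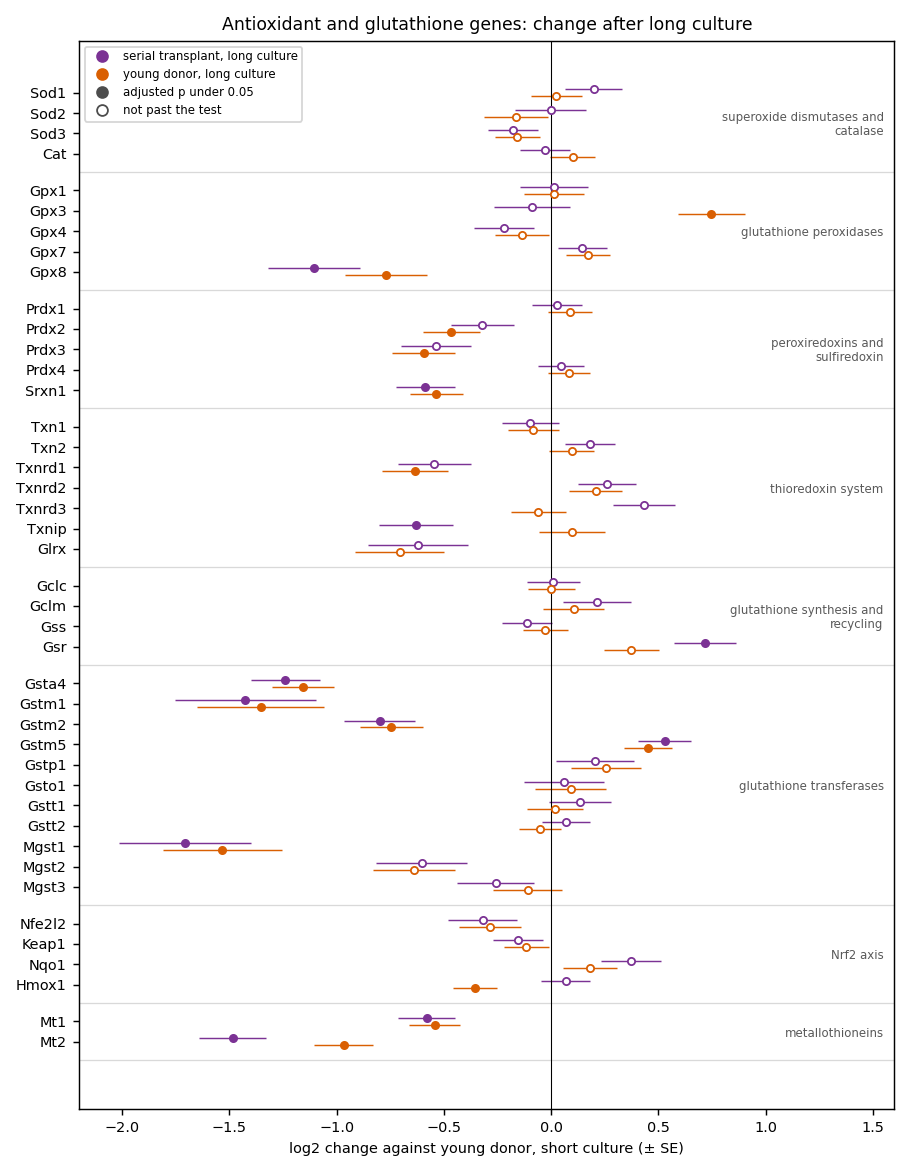
Log2 change of each of the 42 measured members against young-donor short culture, with limma standard errors; purple is the serial-transplant and orange the young-donor long-culture group, and filled points passed an adjusted p of 0.05. Filled points lie mostly left of 0, among glutathione transferases, metallothioneins and redoxins, while the dismutases and catalase carry open points near 0.

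These counts rested on single arrays. Among young-donor cells 7, 6 and 4 members fell when young long-culture replicate 1, 2 or 3 was left out. When young short-culture replicate 1 or 2 was, 6 and 9 fell. The number of all probe sets past the test shrank too. It went from 3260 with every array to 1383, 2235 and 1085 for the long-culture omissions, in the same order. For the short-culture omissions it was 2277 and 2291. Whether members lost calls more often than other probe sets was not tested. On leaving out young long-culture replicate 1 or 3 no member rose, and 1 rose on leaving out its replicate 2, or replicate 1 or 3 of young short culture. In the serial-transplant comparison, leaving out serial-transplant replicate 2 left 1 member that fell and none that rose, with 66 of all probe sets past the test; 6 fell on leaving out its replicate 1, and 6 fell and 1 rose on leaving out young short-culture replicate 1. Leaving out young short-culture replicate 3 gave 10 that fell and 3 that rose.

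Young short-culture replicate 2 had the lowest array weight (0.328) and the highest fibroblast signal of all arrays. Its lowest correlation within its group, 0.9904, was shared with replicate 3. It also had the highest short-culture signal for 11 of the 12 members that fell in young long culture, all but Txnrd1, and for 8 of the 9 that fell in serial-transplant culture, all but Txnip. How often this held among all probe sets that fell was not counted, so whether it sets the members apart is not known. All 20 markers of undifferentiated spermatogonia and 9 of 10 core germ cell genes exceeded 6.94 in at least 1 group mean. This value, the median over all probe sets, served as a mark for dim signals because the method gives no detection call. Of 29 fibroblast markers, 26 also lay above it, among them Dcn and Col1a2. The fibroblast list moved with culture time: 19 of 29 fell and none rose between young long and young short culture, with Pdgfra at -1.50 and Timp2 and Tnc at -1.43 each, and 22 fell in the serial-transplant group, with Pdgfra at -2.01, Timp2 at -1.79 and Tnc at -1.73. Summed on the linear scale, the fibroblast signal ran between 19300 and 29100 units in the serial-transplant arrays, 28500 and 29900 in young long culture, and 43400 and 66600 in young short culture. The serial-transplant arrays differed in the list's median deviation from each marker's mean over all arrays. It was -0.194 on replicate 1 and -0.801 on replicate 2 of that group. On young long-culture replicates 1, 2 and 3 it was -0.225, -0.228 and -0.237. The part of the fibroblast signal in the changes below was not tested. In bulk RNA, fewer cells of a type and less RNA per cell cannot be told apart.

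The macrophage and mast cell list (5 of 15 lower in both comparisons) was summed at 846 to 940 units in serial-transplant, 828 to 882 in young long and 1210 to 2040 in young short culture. The Leydig list (3 of 7 lower in young long culture and 2 in the serial-transplant group) was at 342 to 354, 328 to 351 and 526 to 870 units in the same groups. Only 5 of these 15 and 2 of these 7 markers had a group mean above the dim mark. Sertoli markers (13 measured) moved both ways, with 2 higher and 3 lower in each comparison and sums of 3560 to 3820 units in serial-transplant, 3540 to 3840 in young long and 4010 to 5770 in young short culture. None of 10 endothelial markers passed (limma; 1 with an unadjusted p under 0.05 in each), at 767 to 832, 789 to 978 and 859 to 891 units. Of 11 cell division genes 5 rose in young long culture and 3 in the serial-transplant group. Of the 20 undifferentiated markers 4 rose and 5 fell in young long culture and 2 rose and 3 fell in the serial-transplant group, with sums of 17400 to 17500 units in serial-transplant, 16800 to 19100 in young long and 13900 to 18900 in young short culture. Of the 10 core germ cell genes 4 rose and 1 fell in young long culture (median 0.32) and 3 rose and 1 fell in the serial-transplant group (median 0.45), with sums of 18900 to 19300 units in serial-transplant, 15900 to 18100 in young long and 12800 to 16700 in young short culture. For all probe sets the share that passed was 11.3% in young long and 8.73% in serial-transplant culture. The part of these lists in the members' changes was not tested. RMA values are never 0, so no marker was at 0.

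**Figure D2:**
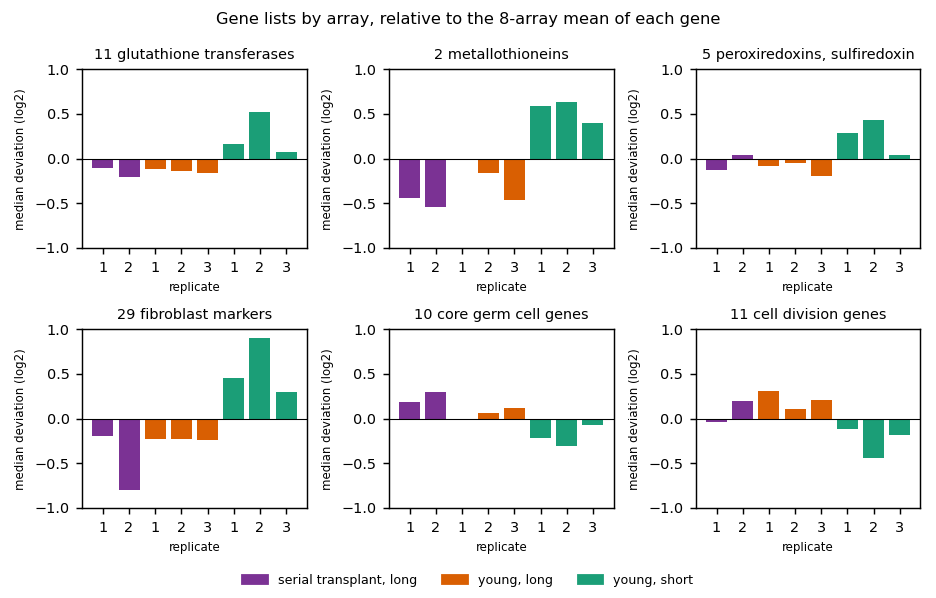
Median deviation, in log2 units, of the genes of each list from each gene's 8-array mean, 1 bar per array in the order serial-transplant long, young long and young short culture. Young short-culture replicate 2 has the highest bars for fibroblast markers (0.91 against 0.46 and 0.29 in replicates 1 and 3) and for glutathione transferases (0.52 against 0.16 and 0.07), while the metallothionein bars of the 3 short-culture arrays (0.59, 0.63 and 0.40) are closer together.

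Glutathione transferases held the largest fall in both comparisons. Of 11 measured, 4 fell and 1 rose in each long-culture group (45.5%). The share of all probe sets that passed was 11.3% in young long and 8.73% in serial-transplant culture. Mgst1 on chromosome 6, a membrane-bound transferase that also reduces lipid peroxides, had signals of 6.75 and 6.32 in serial-transplant long culture, 6.99, 6.52 and 6.60 in young long culture, and 8.11, 8.98 and 7.62 in young short culture. No long-culture array reached the lowest short-culture array. Its signal was 2.89-fold lower in young long than in young short culture (-1.53 ± 0.28 log2, SE, adjusted p = 0.00721) and 3.26-fold lower in the serial-transplant group (-1.71 ± 0.31, adjusted p = 0.00810). The serial-transplant mean (6.53) and the young long-culture mean (6.71) lie below the dim mark, so the fall may be larger than measured.

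Gsta4 on chromosome 9 encodes the transferase that detoxifies 4-hydroxynonenal, a product of lipid peroxidation. It had signals of 8.66 and 8.67 in serial-transplant long culture, 8.80, 8.67 and 8.78 in young long culture, and 9.90, 10.23 and 9.58 in young short culture. The 5 long-culture arrays lay within 0.14 of each other, and the short-culture arrays all lay above them. The change was -1.16 ± 0.14 in young long culture (adjusted p = 0.00163) and -1.24 ± 0.16 in the serial-transplant group (adjusted p = 0.00297). Without serial-transplant replicate 2 the calls of Mgst1 and Gsta4 in that group were lost (adjusted p = 0.142 and 0.0594).

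The 3 mu-class members, which lie on chromosome 3, moved in opposite directions. Gstm1 had 8.68 and 7.90 in serial-transplant long culture, 8.57, 8.12 and 8.40 in young long culture, and 9.31, 10.51 and 9.33 in young short culture. The groups did not overlap, but young short-culture replicate 2 stood more than 1 above its group, and the changes were -1.35 ± 0.30 (adjusted p = 0.0162) in young long and -1.43 ± 0.33 (adjusted p = 0.0226) in serial-transplant culture. Without that array the young long-culture change was -0.96. Gstm2 had 7.36 and 7.21 in serial-transplant long culture, 7.23, 7.47 and 7.32 in young long culture, and 7.86, 8.45 and 7.95 in young short culture. All long-culture arrays lay below the short-culture ones, with changes of -0.80 ± 0.17 in serial-transplant (adjusted p = 0.0138) and -0.75 ± 0.15 in young long culture (adjusted p = 0.0104). Gstm5 was the one of these 3 that rose, at 9.66 and 9.94 in serial-transplant, 9.68, 9.84 and 9.65 in young long and 9.20, 9.39 and 9.22 in young short culture. Every long-culture array lay above every short-culture one, by 0.53 ± 0.12 in serial-transplant cells (adjusted p = 0.0234) and 0.45 ± 0.11 in young long-culture cells (adjusted p = 0.0248).

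Mu-class transferases are close copies, as are Mt1 and Mt2, and cross-hybridisation could blur the values of single genes. The Gstm5 rise in young cells no longer passed without any 1 of young long-culture replicates 1 to 3 or young short-culture replicates 1 or 3 (adjusted p between 0.0602 and 0.0781). In the serial-transplant comparison it was lost without replicate 2 of that group (0.283) or young short-culture replicate 1 (0.0652). Gstm1 in young cells was lost without young long-culture replicate 2 (0.0563) or 3 (0.0578), and Gstm1 and Gstm2 in serial-transplant cells without serial-transplant replicate 2 (0.291 and 0.174).

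Of the other transferases, Mgst2 had changes of -0.64 ± 0.19 in young long culture (adjusted p = 0.0525) and -0.60 ± 0.21 in serial-transplant culture (adjusted p = 0.113), outside the threshold in both although its arrays did not overlap. Gstp1, the main transferase of many cultured cells, averaged 11.44 ± 0.03 (SD, n = 2) in serial-transplant, 11.50 ± 0.35 in young long and 11.24 ± 0.19 in young short culture (n = 3 each). Gsto1, Gstt1, Gstt2 and Mgst3 had changes between -0.26 and 0.14 over both comparisons. Gstt1, Gstt2 and Mgst3 stayed below the dim mark in every group mean.

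Metallothioneins fell in both long-culture groups. Mt1 and Mt2, neighbours on chromosome 8, encode small metal-binding proteins that are induced by zinc, glucocorticoids and oxidants. Mt2 had signals of 10.48 and 10.26 in serial-transplant long culture, 11.08, 10.95 and 10.62 in young long culture, and 11.95, 11.96 and 11.65 in young short culture. The 3 groups did not overlap, with serial-transplant arrays lowest and young short-culture arrays highest. Between the 2 long-culture groups Mt2 did not pass (limma, adjusted p = 0.465), and 25.7% of all probe sets did not overlap between them. Mt2 was 2.80-fold lower in serial-transplant than in young short culture (-1.48 ± 0.16, adjusted p = 0.00103) and 1.96-fold lower in young long than in young short culture (-0.97 ± 0.14, adjusted p = 0.00310), and was the only member past the test in both comparisons under all 17 alternative settings. Mt1 had 11.47 and 11.49 in serial-transplant, 11.72, 11.55 and 11.28 in young long, and 12.06, 12.13 and 11.98 in young short culture. Both long-culture groups lay below the short-culture arrays and overlapped each other, with changes of -0.58 ± 0.13 (adjusted p = 0.0214) and -0.54 ± 0.12 (adjusted p = 0.0166). Leaving out young long-culture replicate 3 ended the young-donor call of Mt1 (adjusted p = 0.0754), and the serial-transplant call without either serial-transplant array (0.0999 and 0.174) or young short-culture replicate 1 (0.0523). Their promoters, printed above, hold several metal response cores, and whether these sites bear on the falls was not tested. None of the 6 other genes of metal handling measured, Mtf1 and the zinc exporter Slc30a1 among them, passed in either comparison (limma). An unadjusted p under 0.05 was reached by 1 in young long culture and 0 in serial-transplant culture. All 6 changes were negative in both, with medians of -0.13 in young long and -0.12 in serial-transplant culture. As 11.3% and 8.73% of all probe sets passed, 6 genes are too few to set this count apart.

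**Figure D3:**
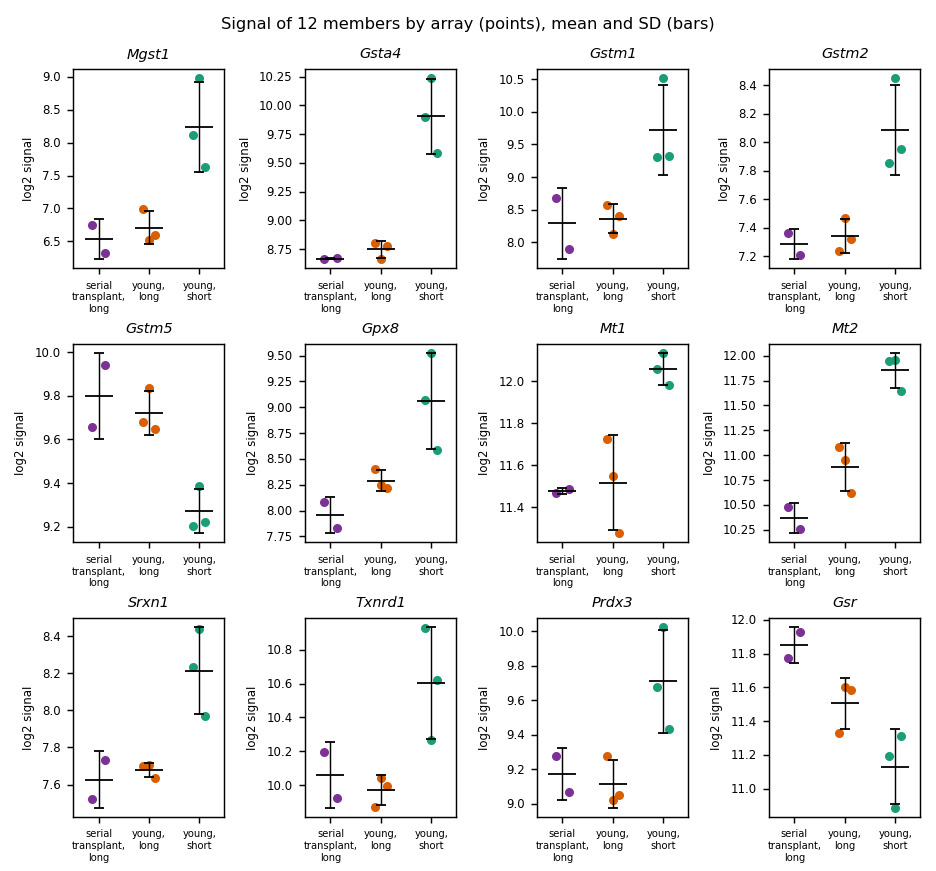
Log2 signal of 12 members on each array, with serial-transplant long culture left, young long culture in the middle and young short culture right; points are arrays, the bar is the mean and whiskers are the SD. In 10 of the 12 panels the short-culture points lie above both long-culture groups, and in those of Gstm5 and Gsr below.

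Glutathione peroxidases diverged. Gpx8, a peroxidase of the endoplasmic reticulum on chromosome 13, had 8.08 and 7.83 in serial-transplant long culture, 8.40, 8.25 and 8.22 in young long culture, and 9.07, 9.52 and 8.59 in young short culture. The groups did not overlap, and the changes were -1.10 ± 0.21 in serial-transplant (adjusted p = 0.0102) and -0.77 ± 0.19 in young long culture (adjusted p = 0.0257). The first was lost without serial-transplant replicate 2 (adjusted p = 0.157), the second without young short-culture replicate 1 or any young long-culture array (0.0618 to 0.0965). Gpx3 on chromosome 11, the secreted plasma peroxidase, had 6.40 and 6.14 in serial-transplant long culture, 7.39, 6.71 and 7.22 in young long culture, and 6.40, 6.39 and 6.29 in young short culture. The young long-culture arrays stood above all others, by 0.75 ± 0.16 against young short culture (adjusted p = 0.0136), although its young long-culture mean of 7.11 is close to the dim mark and the other means are below it. Leaving out young long-culture replicate 1 (adjusted p = 0.0550) or 3 (0.0660) ended that call, and the change of Gpx3 in serial-transplant cells was -0.09 ± 0.18 (adjusted p = 0.843).

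The other peroxidases did not pass. Gpx1, the abundant cytosolic enzyme, averaged 10.37 ± 0.12 (SD, n = 2) in serial-transplant, 10.37 ± 0.13 in young long and 10.36 ± 0.29 in young short culture (n = 3 each). Gpx4, which protects membranes from lipid peroxidation and is needed for sperm formation, averaged 10.34 ± 0.07, 10.42 ± 0.08 and 10.56 ± 0.25 in the same groups, and its second probe set gave changes of -0.20 in serial-transplant and -0.14 in young long culture. Gpx7 had changes of 0.15 and 0.17 below the dim mark.

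Among peroxiredoxins, thiol enzymes that reduce hydrogen peroxide, the mitochondrial Prdx3 (chromosome 19) fell in young long culture. It had 9.28 and 9.07 in serial-transplant long culture, 9.28, 9.02 and 9.05 in young long culture, and 9.68, 10.02 and 9.43 in young short culture. All long-culture arrays were below the short-culture ones, and the change was -0.59 ± 0.15 in young cells (adjusted p = 0.0257). In serial-transplant cells it was -0.54 ± 0.16 and did not pass (adjusted p = 0.0680). Srxn1 on chromosome 2 encodes sulfiredoxin, which repairs over-oxidised peroxiredoxins. It averaged 7.63 ± 0.15 in serial-transplant, 7.68 ± 0.04 in young long and 8.21 ± 0.24 in young short culture, with changes of -0.59 ± 0.14 (adjusted p = 0.0252) and -0.54 ± 0.12 (adjusted p = 0.0207).

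Prdx2 changed by -0.47 ± 0.13 in young long culture (limma, adjusted p = 0.0432). Its second, dimmer probe set gave -0.29 (adjusted p = 0.167), and which set better reports the gene was not tested. In serial-transplant cells the change of the brighter set was -0.32 ± 0.15 (adjusted p = 0.228). Prdx1 and Prdx4 had changes between 0.03 and 0.09, but the second probe set of Prdx1 gave -0.13 in serial-transplant and -0.02 in young long culture, none past the test. The calls of Prdx3 and Srxn1 in young cells were lost without young long-culture replicates 2 or 3 or young short-culture replicate 1 (adjusted p between 0.0511 and 0.101), that of Prdx3 also without young short-culture replicate 2 (0.0565) and that of Srxn1 without young long-culture replicate 1 (0.0629). The Srxn1 call in serial-transplant cells was lost without young short-culture replicate 1 (0.0624) or serial-transplant replicate 1 (0.162) or 2 (0.126). The Prdx2 call in young cells was lost on leaving out any of 6 arrays. These were both serial-transplant arrays, young long-culture replicates 1 and 3 and young short-culture replicates 1 and 2. Without young long-culture replicate 1 its adjusted p was 0.162 (limma).

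In the thioredoxin system 1 of 7 members (14.3%) passed in each comparison, and it fell. This is near the 11.3% and 8.73% of all probe sets that passed, and below the 20% and 16.5% of bright ones. The members were the cytosolic reductase Txnrd1 (chromosome 10) in young long culture and Txnip in serial-transplant culture. Txnrd1 had 10.20 and 9.92 in serial-transplant long culture, 9.87, 10.04 and 9.99 in young long culture, and 10.93, 10.27 and 10.62 in young short culture. The change was -0.63 ± 0.15 in young long culture (adjusted p = 0.0233), lost without young short-culture replicate 1 or any young long-culture array (0.0504 to 0.0899), and -0.54 ± 0.17 in serial-transplant culture (adjusted p = 0.0763). Txn1, thioredoxin itself, averaged 11.64 ± 0.04 in serial-transplant, 11.66 ± 0.16 in young long and 11.74 ± 0.17 in young short culture. The mitochondrial Txn2 and Txnrd2 had changes between 0.10 and 0.26. Glrx, glutaredoxin, which removes glutathione from proteins, changed by -0.62 ± 0.23 in serial-transplant (adjusted p = 0.139) and -0.71 ± 0.21 in young long culture (adjusted p = 0.0512), and was highest, at 8.02, on young short-culture replicate 2.

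Txnip on chromosome 3, an arrestin-like protein that binds thioredoxin and curbs glucose uptake, had 10.20 and 10.64 in serial-transplant long culture, 11.47, 10.94 and 11.04 in young long culture, and 10.94, 11.04 and 11.17 in young short culture. Both serial-transplant arrays were below all others, while the young groups overlapped. Against young short culture the change was -0.63 ± 0.17 in serial-transplant cells (adjusted p = 0.0450) and 0.10 ± 0.16 in young long-culture cells (adjusted p = 0.737). The call was lost on leaving out any array other than young long-culture replicate 1 (adjusted p between 0.0507 and 0.298), when arrays were centred on their medians (0.0614), with only the arrays of the 2 groups (0.058) and with all rows of the table (0.112).

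No gene of glutathione synthesis passed, though 3 genes are too few to be read as spared, and the recycling enzyme Gsr rose in serial-transplant culture. Gclc and Gclm, the catalytic and modifier subunits of the rate-limiting ligase, and Gss, the second enzyme, had changes between -0.11 and 0.21, none past the test (limma, 0 of these 3 genes with an unadjusted p under 0.05 in any comparison). Gclc averaged 10.91 ± 0.07 in serial-transplant, 10.90 ± 0.05 in young long and 10.90 ± 0.19 in young short culture. Gsr on chromosome 8, the NADPH-dependent glutathione reductase, had 11.77 and 11.93 in serial-transplant long culture, 11.33, 11.60 and 11.58 in young long culture, and 11.19, 10.89 and 11.31 in young short culture. The 3 groups did not overlap, with serial-transplant arrays highest, and the change was 0.72 ± 0.14 in serial-transplant cells (adjusted p = 0.0123, 0.166 without serial-transplant replicate 2) and 0.37 ± 0.13 in young long-culture cells, which did not pass (adjusted p = 0.0880).

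None of the 4 first-line enzymes passed in either comparison with young short culture (limma, 0 with an unadjusted p under 0.05). With 11.3% and 8.73% of all probe sets past the test, 4 genes are too few to be read as spared. Sod1, the cytosolic copper-zinc dismutase, averaged 12.22 ± 0.03 in serial-transplant, 12.04 ± 0.20 in young long and 12.02 ± 0.12 in young short culture. The mitochondrial manganese dismutase Sod2 averaged 10.42 ± 0.17, 10.26 ± 0.07 and 10.42 ± 0.32, and catalase (Cat) 9.60 ± 0.11, 9.73 ± 0.14 and 9.62 ± 0.06 in the same groups. Sod3, the extracellular dismutase, was below the dim mark in every group.

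The Nrf2 regulators themselves did not pass. Nfe2l2 had 9.66 and 9.51 in serial-transplant long culture, 9.72, 9.49 and 9.65 in young long culture, and 9.90, 10.21 and 9.61 in young short culture. Its groups overlapped, with changes of -0.32 ± 0.16 (adjusted p = 0.280) and -0.29 ± 0.14 (adjusted p = 0.235). Keap1 had 8.14 and 8.20 in serial-transplant, 8.05, 8.21 and 8.38 in young long and 8.36, 8.36 and 8.27 in young short culture, and its changes were -0.16 ± 0.12 (adjusted p = 0.511) and -0.12 ± 0.10 (adjusted p = 0.525). Nqo1, a quinone reductase and classic Nrf2 target, was below the dim mark in every group. Its changes were positive and did not pass (limma). They were 0.37 ± 0.14 in serial-transplant (adjusted p = 0.138) and 0.181 ± 0.125 in young long culture (adjusted p = 0.398). Hmox1 on chromosome 8, the heme oxygenase that Nrf2 induces and Bach1 represses, had 10.28 and 10.39 in serial-transplant long culture, 9.83, 10.01 and 9.91 in young long culture, and 10.23, 10.41 and 10.18 in young short culture. Only the young long-culture arrays were low, by -0.35 ± 0.10 against young short culture (adjusted p = 0.0483), a call lost on leaving out any 1 of the 8 arrays (0.0532 to 0.161).

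Set directly against each other, serial-transplant and young long culture gave no member past the test, as for all probe sets (limma, 0% called). At an unadjusted p under 0.05 there were 6 of 42 members and 2079 of 28944 probe sets. The arrays of these groups did not overlap for 8 members (19%), where this held for 25.7% of all probe sets. The 6 members were picked by that unadjusted p after their values were seen. Gpx3 (-0.84 ± 0.18, adjusted p = 0.326), Txnip (-0.73 ± 0.17, adjusted p = 0.359) and Mt2 (-0.52 ± 0.16, adjusted p = 0.465) were lower in serial-transplant cells, and Hmox1 (0.42 ± 0.11, adjusted p = 0.420), Gsr (0.34 ± 0.14, adjusted p = 0.653) and Txnrd3 (0.49 ± 0.14, adjusted p = 0.455) were higher. Txnrd3, the thioredoxin-glutathione reductase found mainly in testis, had 9.35 and 9.32 in serial-transplant long culture, 8.64, 8.86 and 9.03 in young long culture, and 8.92, 8.70 and 9.10 in young short culture. The serial-transplant arrays exceeded all others for it. Transferases gave no member with an unadjusted p under 0.05 in this comparison, with changes between -0.17 and 0.12.

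**Figure D4:**
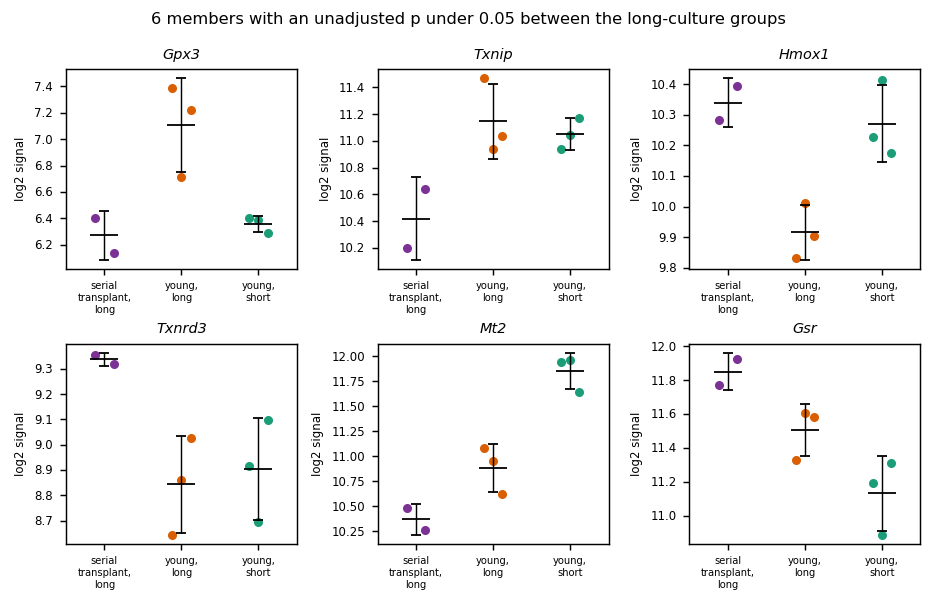
Log2 signal on each array of the 6 members with an unadjusted p under 0.05 between serial-transplant (left) and young long culture (middle), with young short culture at right; points are arrays, the bar is the mean and whiskers are the SD. The long-culture groups do not overlap in any panel, and none of these differences passed the adjusted test.

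Other genes of the same pathway were counted in the same way. Of 100 further genes listed, 92 were measured, 73 of them above the dim mark in at least 1 group mean. In young long culture 15 fell and 8 rose (25%), with a median of -0.13. In serial-transplant culture 12 fell and 4 rose (17.4%), with a median of -0.07. Among all probe sets 11.3% and 8.73% passed in these comparisons, and 20% and 16.5% with dim probe sets left out. The serial-transplant count is thus near the share of bright probe sets, and the young long-culture count is little above its bright share of 20%. In young long culture the fallers with the smallest p were Xdh (-1.42), the xanthine oxidoreductase that can make superoxide, Akr1b8 (-0.69), an aldo-keto reductase, Ftl1 (-0.54), the ferritin light chain, Cyba (-0.88), a subunit of the NADPH oxidase, and Nxn (-0.64), nucleoredoxin. The risers were Abcc4 (0.67), a transporter that exports conjugates, Gsto2 (0.81), an omega transferase, Oxr1 (0.65), an oxidation resistance gene, Oplah (0.71), the 5-oxoprolinase of glutathione turnover, and Gstm7 (0.76). In serial-transplant culture the fallers with the smallest p were Akr1b8 (-0.88), Xdh (-1.38), Cbr3 (-0.96), a carbonyl reductase, Idh2 (-1.39), the mitochondrial NADPH-making isocitrate dehydrogenase, and Ephx1 (-1.40), an epoxide hydrolase, and the 4 risers were Abcc4 (0.67), Oxr1 (0.66), Oplah (0.55) and Sesn1 (0.52), a sestrin. Of 23 measured targets and partners of Nrf2, 22 lay above the dim mark in at least 1 group mean. Of the 23, 7 fell and 1 rose in young long culture (34.8%) and 4 fell and 1 rose in serial-transplant culture (21.7%). The shares of bright probe sets were 20% and 16.5%, and the serial-transplant count is near the second. Whether these shares differ was not tested.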

How the data were processed

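Biotinylated cRNA made from Trizol-extracted total RNA was measured on Affymetrix arrays, per the labels. The deposited values are log2 signals per probe set, for which the submitters' processing notes name Partek 6.4 and RMA, with no settings. The log2 scale was read from the deposited values (2.42 to 14.81, array medians 6.90 to 6.98).

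Of 35557 rows, an opening run of 6613 with consecutive identifiers was taken as controls and left out. Of the remaining 28944 probe sets, 21789 carry 1 gene symbol, 1621 several and 5534 none in the platform annotation. Chromosomes come from RefSeq GRCm38.p6. Groups follow the labels. limma 3.58.1 under R 4.3.3 gave all 3 pairwise comparisons from 1 fit over the 8 arrays (1 coefficient per group; residual df 5, prior df 6.28), with two-sided p-values adjusted over all probe sets and a threshold of 0.05. Errors of changes are SE and those of means SD. The fit was tested on simulated data. No 2 arrays were identical, and the small number of arrays limits precision.

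Members and lists were chosen with earlier results of these data known. All members are accounted for and those that passed are named. Single arrays are given for the 6 largest passing changes per comparison among members with any group mean above the overall median, for Nfe2l2, Keap1 and Txnip, and for others chosen after their values were seen. Up to 5 further pathway genes per direction were named by smallest p, and 3 fibroblast markers by size. Alternatives were an intensity trend, array weights, 2 groups only, quantile normalization, leaving out dim probe sets, centring, a replicate block, all rows, gene means, a log2 change of at least 0.5, and each array left out.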

Additional observations from a re-analysis of the deposited data

How the results depend on the processing

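No direction reversed under any alternative, and no member passed between serial-transplant and young long culture. Of the 25 single-gene changes that passed, 5 kept their call under every alternative run for them: Gsta4, Gstm2, Mgst1 and Mt2 in young long culture and Mt2 in serial-transplant culture. Testing all rows of the table left 5 members lower and 1 higher in young long culture (1542 probe sets in all) and 4 lower and 1 higher in serial-transplant culture (1079); the cause was not tested. With only the arrays of the groups compared, 1252 probe sets and 1 higher member passed in serial-transplant against young short culture, and 15 probe sets in serial-transplant against young long culture. Array weights gave 5079 probe sets in young long against young short culture and 22 in serial-transplant against young long culture. The higher members in young long culture numbered 1 without dim probe sets, with quantile normalization and with a log2 change of at least 0.5, which left 2083 probe sets by its construction. The cause of the other shifts was not tested.

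Leaving out single arrays, young long against young short culture gave 4 to 13 lower and 0 to 2 higher members and 1085 to 3195 probe sets. Serial-transplant against young short culture gave 1 to 10 lower and 0 to 3 higher members and 66 to 2817 probe sets, and serial-transplant against young long culture 0 to 11 probe sets. Same-numbered young long and young short arrays correlated at 0.081, 0.176 and 0.102 in their deviations from the group means. Young long replicates 1 and 2 correlated best with their own number and replicate 3 with young short replicate 1 (0.251), so the arrays were taken to share only a number. With the number as a replicate block, 13 members were lower and 2 higher in young long culture, 10 lower and 3 higher in serial-transplant culture, and 4 probe sets passed between the long-culture groups; Hmox1 in young long (adjusted p = 0.059) and Txnip in serial-transplant culture (adjusted p = 0.0843) no longer passed. The number of arrays limits precision, and 6 members lay below the overall median in every group mean, with no detection call to say whether they were measured above background.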
